A study of Mus musculus with 12 samples.

Results

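Immediate early transcription factors were examined in mouse corneas injured with benzalkonium chloride (BAK), a preservative and detergent. The 10 genes were chosen by symbol from the AP-1, EGR and related families (Fos, Fosb, Fosl1, Fosl2, Jun, Junb, Egr1, Egr2, Ier2 and Atf3), out of 19702 genes that the deposited file lists. All 10 were found and all 10 passed the filter on low counts that left 16124 genes to test. There were 12 RNA-seq libraries in 4 groups of 3, each from a pool of 6 corneas of 3 mice. UCPRP and UCS corneas were injured with BAK and given drops of a cord blood-derived biologic, Vehicle corneas were injured and are labelled as untreated, and Control corneas had neither injury nor treatment. Per the labels' protocols the injured eyes received 5 µl of 0.2% BAK a day for 14 days, and the biologics were given at 20%, 3 times a day for 10 days. The labels state neither the strain, sex and age of the mice nor when corneas were harvested relative to BAK and the drops, and they do not spell out UCPRP and UCS.

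Immediate early genes are switched on within minutes by growth factors, wounding or stress, without new protein synthesis, and their messages are short-lived. FOS proteins pair with JUN proteins to form the dimeric AP-1 factor, in which the partners present decide the strength and choice of targets, while EGR proteins are zinc-finger activators that bind GC-rich sites. In corneal epithelium AP-1 factors are known to act in wound closure, in matrix metalloproteinase expression and in the differentiation of stratified cells.

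Each library held 18.55 M to 20.44 M estimated counts. Levels are CPM, counts scaled to the library total times a TMM factor, which was 0.825 for Control replicate 2 and 0.994 to 1.067 for the other 11 libraries. Libraries differed in Dbp. This clock output gene was between 139 and 280 CPM in 8 libraries and between 14.7 and 25.9 CPM in UCS replicate 1, Vehicle replicates 1 and 2 and Control replicate 3. All 9 corneal epithelium genes were detected in each group, which by itself does not settle how pure the tissue was. Their summed level was 11853.5 to 15695.5 CPM in UCPRP, 12210.4 to 14324.1 CPM in UCS and 12653.6 to 14950.7 CPM in Vehicle, against 41582.3 to 85781.9 CPM in Control. In Vehicle 8 of the 9 genes were called lower than in Control and 1 higher. Markers of conjunctiva and goblet cells ran the other way, with sums of 13688 to 20476.7 CPM in the injured groups and 2773.6 to 6479 CPM in Control and 9 of 9 genes higher in Vehicle. Macrophage markers summed to 635.7 to 656.7 CPM in UCPRP, 547.7 to 900.7 CPM in UCS and 774.6 to 965 CPM in Vehicle, against 196.7 to 275.9 CPM in Control (8 of 9 genes higher in Vehicle). Neutrophil markers summed to 58.7 to 105.9 CPM in UCPRP, 35.4 to 172.9 CPM in UCS and 105.5 to 597.3 CPM in Vehicle, against 12.6 to 21.3 CPM in Control (7 of 8 higher in Vehicle). Marker sums of tissue from beside the cornea varied within each group, where lens genes summed to 191.1 to 30882.6 CPM, retina genes to 2365.3 to 13651.1 CPM and skeletal muscle genes to 9.77 to 1105.2 CPM, and the groups overlapped. In UCPRP replicate 3 the lens sum (30882.6 CPM) and the retina sum (13651.1 CPM) each exceeded the corneal epithelium sum (11853.5 CPM). In the other libraries both stayed below it. The part of cell makeup in the values below was not tested, and in whole tissue fewer cells of a type and less RNA per cell cannot be told apart.

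After BAK injury the members did not rise together. Fos was lower in all 3 injured groups than in Control, Fosl2 was lower in UCPRP and UCS, and Egr2 was higher in Vehicle, and these were the 6 calls among the comparisons with Control. Over all genes tested 10.4% were called in UCPRP, 10.9% in UCS and 16.5% in Vehicle against Control. No member was called between UCPRP, UCS and Vehicle, where edgeR with all 12 libraries called 0% of all genes. Because pools and not eyes are the replicates, the p-values rest on the spread between pools within groups. That spread was estimated over all 12 libraries of the 4 groups, not from the compared groups alone. In a ratio chosen after the values were seen, Egr1 counts exceeded Fos counts in each injured library and were below them in each Control library. Egr1 itself was not called.

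Fos (GRCm38.p6 chr12:85473890-85477274, plus strand), the founding member of the FOS family and the usual marker of recent stimulation, was at 16.1, 19.7 and 19.9 CPM in UCPRP, 15.4, 15.3 and 16.3 CPM in UCS and 24.1, 20.6 and 14.2 CPM in Vehicle, against 33.5, 51.4 and 23 CPM in Control. UCPRP and UCS libraries all lay below each Control library, while Vehicle replicate 1 lay above Control replicate 3. Against Control the log2 fold change was −0.95 (SE 0.26, edgeR adjusted p = 0.0393) in UCPRP, −1.20 (SE 0.26, adjusted p = 0.0126) in UCS and −0.87 (SE 0.26, adjusted p = 0.041) in Vehicle. The call in UCS held under all 19 alternatives. The call in UCPRP held under 6 of 19. It was lost with limma-voom (adjusted p = 0.0675), with only the 2 groups (0.0962) and with Dbp as a covariate (0.0528), and without Control replicate 1 or 2, any UCPRP or UCS library, or Vehicle replicate 2 (adjusted p = 0.0553 to 0.124). The call in Vehicle held under 5 of 19. It was lost with limma-voom (adjusted p = 0.0597), with only the 2 groups (0.157) and with Dbp as a covariate (0.158), and without Control replicate 1 or 2, any UCPRP or UCS library, or Vehicle replicate 2 or 3 (0.0508 to 0.149). Without Control replicate 2 the log2 fold changes were −0.64 in UCPRP, −0.85 in UCS and −0.53 in Vehicle, and only UCS was then called (adjusted p = 0.0389). Within the low-Dbp libraries, with 2 of Vehicle and 1 of Control, the value for Vehicle was −0.05. Within the high-Dbp libraries, with 1 of Vehicle and 2 of Control, it was −1.58. High-Dbp libraries alone gave −1.19 in UCPRP and −1.43 in UCS, and low-Dbp ones, 1 of each group, −0.59 in UCS. Both fits left a group with 1 library, so only effect sizes are given. Whether Fos depends on clock phase was not tested. UCPRP has no low-Dbp library.

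Fosl2 (chr5:32136472-32157840, plus strand), which encodes FRA-2, a FOS family protein without the strong activation domain of FOS, was at 145, 111 and 127 CPM in UCPRP, 173, 141 and 142 CPM in UCS and 214, 149 and 125 CPM in Vehicle, against 228, 297 and 216 CPM in Control. No injured library reached the lowest Control library, although Vehicle replicate 1 lay close below it. On the log2 scale the fold change against Control was −0.95 (SE 0.20, edgeR adjusted p = 0.0117) in UCPRP, −0.70 (SE 0.20, adjusted p = 0.0462) in UCS and −0.60 (SE 0.20, adjusted p = 0.0643, not called) in Vehicle. The call in UCPRP held under 18 of 19 alternatives and was lost without UCPRP replicate 2 (adjusted p = 0.0557), and that in UCS held under 8 of 19 and was lost with limma-voom (0.0533) and without any 1 of the Control, UCPRP or UCS libraries or Vehicle replicate 2 (0.052 to 0.164). Vehicle was called by DESeq2 (adjusted p = 0.0264) and without Vehicle replicate 1 (0.0125).

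Fosb, a FOS family member whose shorter splice form is known in brain for its stability, was at 19.6, 12.4 and 15.1 CPM in UCPRP, 9.56, 12.9 and 10 CPM in UCS and 7.64, 4.4 and 13.1 CPM in Vehicle, against 4.33, 9.01 and 6.32 CPM in Control. UCPRP and UCS did not overlap with Control. Vehicle did, with only its replicate 3 above the Control libraries. In UCPRP the log2 fold change against Control was 1.26 (SE 0.37, 95% interval 0.45 to 2.07, edgeR adjusted p = 0.052), just outside the threshold, and DESeq2 (adjusted p = 0.0102) and limma-voom (0.0434) called it, as did the edgeR fit without Vehicle replicate 2 (0.0247) or replicate 3 (0.0237). Against Control it was 0.73 in UCS (adjusted p = 0.27) and 0.35 in Vehicle (adjusted p = 0.604). Deposited counts give genes and not splice forms, so the short form was not measured.

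Fosl1, which encodes FRA-1, the FOS family protein most tied to migrating epithelial cells, was barely expressed, with 2.32 to 34.72 estimated counts per library. Its counts were not whole numbers in any library, as counts of whole reads would be, and how its reads were assigned is not stated, so its level is uncertain. It reached 1.86 CPM in UCS replicate 1 and 1.75 and 0.928 CPM in Vehicle replicates 1 and 2, the low-Dbp libraries of the injured groups, and was between 0.104 and 0.64 CPM in all others. The low-Dbp library of Control had the lowest value, 0.104 CPM. Control libraries alone would not have passed the filter (minimum count 10), so Fosl1 entered the test through injured libraries where it was higher. The log2 fold change against Control was 0.66 in UCPRP, 1.48 in UCS and 1.76 in Vehicle, with intervals from −1.70 to 3.97 that all include 0 (edgeR adjusted p = 0.742, 0.453 and 0.286).

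**Figure D1:**
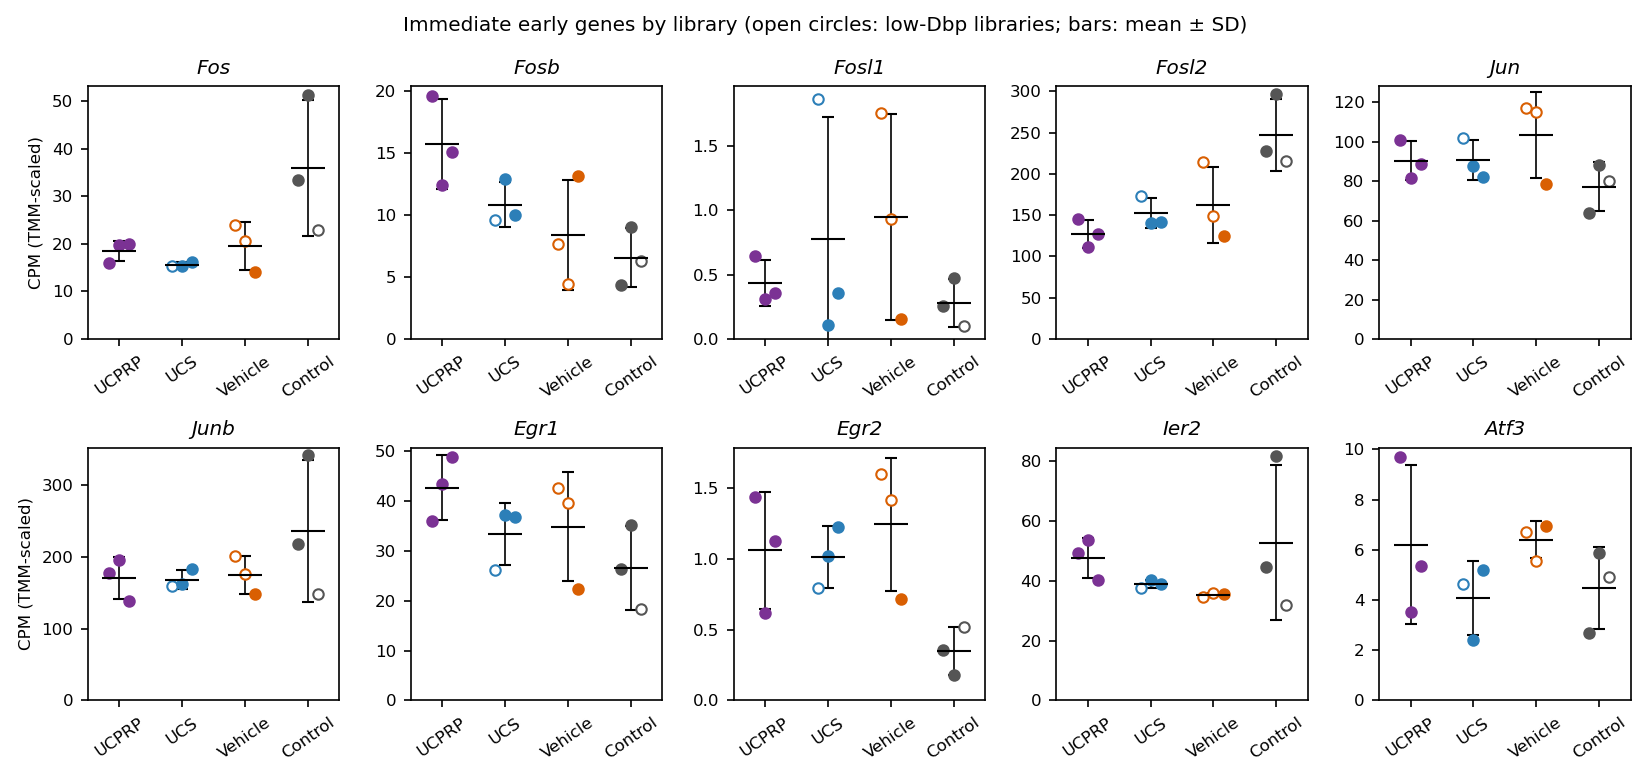
CPM of the 10 genes by library (y axis, linear, from 0) in UCPRP, UCS, Vehicle and Control (x axis); points are libraries, open where Dbp was low, and bars are mean ± SD over 3 libraries, cut off at 0. Fos and Fosl2 sit highest in Control, Egr2 lowest in Control, and the high Fosl1 values of 0.928 to 1.86 CPM are all open points.

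The promoters of these FOS family genes are printed because Fos and Fosl2 had lower values in UCPRP and UCS than in Control and Fosb had higher ones (not called). They run from 250 bases before to 50 after the transcription start, 5′ to 3′ on the gene's strand, and come from RefSeq (GRCm38.p6): Fos at chr12:85473640-85473939 (plus strand), Fosl2 at chr5:32136222-32136521 (plus strand) and Fosb at chr7:19309996-19310295 (minus strand). Capitals mark the motifs found, which were searched on both strands except the TATA box.
Fos: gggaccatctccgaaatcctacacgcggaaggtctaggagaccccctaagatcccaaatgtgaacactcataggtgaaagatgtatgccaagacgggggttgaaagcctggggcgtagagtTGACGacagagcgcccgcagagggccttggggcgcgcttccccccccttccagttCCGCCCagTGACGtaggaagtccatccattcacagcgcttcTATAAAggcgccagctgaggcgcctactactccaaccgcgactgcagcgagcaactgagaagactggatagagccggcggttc
Fosl2: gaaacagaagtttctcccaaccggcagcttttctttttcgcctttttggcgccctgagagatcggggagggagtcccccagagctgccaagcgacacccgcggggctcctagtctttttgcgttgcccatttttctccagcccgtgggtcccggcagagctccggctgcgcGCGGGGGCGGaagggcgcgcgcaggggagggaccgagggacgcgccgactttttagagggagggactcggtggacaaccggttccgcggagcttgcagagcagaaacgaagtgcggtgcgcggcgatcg
Fosb: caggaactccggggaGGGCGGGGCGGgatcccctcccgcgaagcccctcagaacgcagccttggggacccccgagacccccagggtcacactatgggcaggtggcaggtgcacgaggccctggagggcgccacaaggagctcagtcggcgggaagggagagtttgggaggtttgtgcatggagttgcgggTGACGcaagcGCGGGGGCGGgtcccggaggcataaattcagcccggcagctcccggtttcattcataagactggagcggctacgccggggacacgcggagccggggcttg

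The motifs searched were the cyclic AMP response element TGACGTCA and its core TGACG, the AP-1 site TGACTCA, the EGR site GCGGGGGCG, the GC box GGGCGG, the TATA box TATAAA (plus strand only) and the CArG box of serum response factor. The Fos window held the core TGACG with its first base at −129 and −66 from the start, a GC box at −74 and a TATA box at −33. The Fosb window held the core at −60 and an EGR site at −50, which the GC box at −46 overlaps, besides a pair of overlapping GC boxes at −235 and −230. The Fosl2 window held an EGR site at −79, overlapped by a GC box at −75, and no TGACG. Of all 32851 RefSeq promoters of this length 20.8% held TGACG, 2.91% the EGR site, 35.7% a GC box and 8.32% TATAAA. None of the 7 members' windows searched (Fos, Fosb, Fosl2, Jun, Junb, Egr2, Atf3) held the full TGACGTCA (1.79% of all promoters), the AP-1 site (5.2%) or a CArG box (1.63%); letters absent from a window of 300 bases say nothing of the factor.

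Neither JUN gene was called in any comparison. Jun, the main activating partner of FOS, was at 101, 81.8 and 88.7 CPM in UCPRP, 102, 87.8 and 82.3 CPM in UCS and 117, 115 and 78.4 CPM in Vehicle, against 63.7, 88.1 and 80.1 CPM in Control. The groups overlapped, and the highest 3 libraries were Vehicle replicates 1 and 2 and UCS replicate 1, the low-Dbp libraries of the injured groups. The log2 fold change in Vehicle against Control was 0.42 (SE 0.17, 95% interval 0.05 to 0.80, edgeR adjusted p = 0.125), and without Vehicle replicate 3 it was 0.59 (adjusted p = 0.0249). Junb, a JUN protein that can restrain Jun, was at 177, 196 and 139 CPM in UCPRP, 160, 162 and 183 CPM in UCS and 201, 176 and 148 CPM in Vehicle, against 218, 342 and 148 CPM in Control. Control alone spread over 148 to 342 CPM, wider than the other groups, and the log2 fold changes against Control of −0.47, −0.49 and −0.43 were not called (edgeR adjusted p = 0.302, 0.287 and 0.303 in UCPRP, UCS and Vehicle).

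Of the EGR genes, Egr1, a broad early growth response activator, was at 35.9, 43.4 and 48.8 CPM in UCPRP, 26.2, 37.1 and 36.8 CPM in UCS and 42.7, 39.6 and 22.3 CPM in Vehicle, against 26.4, 35.2 and 18.3 CPM in Control. UCPRP lay wholly above Control, although its lowest library was close to the highest Control library, and UCS and Vehicle overlapped with it. Set against Control the log2 fold change was 0.68 in UCPRP (SE 0.27, 95% interval 0.08 to 1.28, edgeR adjusted p = 0.155), 0.33 in UCS (adjusted p = 0.56) and 0.39 in Vehicle (adjusted p = 0.404). Egr2 (chr10:67534469-67542188, plus strand), best known for its role in Schwann cells and hindbrain, had 27, 12 and 22 counts in UCPRP, 15, 19 and 24 in UCS and 31, 29 and 14 in Vehicle, against 7, 3 and 10 in Control. Each injured library had more than each Control library, at a depth where 3 counts are about 0.147 to 0.178 CPM. Control libraries alone would not have passed the filter (minimum count 10), so Egr2 entered the test through the injured libraries, where it was higher. With no filter its log2 fold change in Vehicle against Control was 1.78 (edgeR adjusted p = 0.0273). The log2 fold change against Control was 1.56 (SE 0.48, edgeR adjusted p = 0.0644) in UCPRP, 1.49 (SE 0.48, adjusted p = 0.0747) in UCS and 1.79 (SE 0.48, adjusted p = 0.0246) in Vehicle. In Vehicle the call held under 13 of 19 alternatives and was lost with only the Vehicle and Control libraries in the fit (adjusted p = 0.063), with Dbp as a covariate (0.0785) and without Control replicate 1 (0.0707), Control replicate 2 (0.0832), Vehicle replicate 1 (0.0828) or Vehicle replicate 2 (0.0744). Egr3, an EGR gene outside the 10 that was named after its values were seen, was called higher in Vehicle (log2 fold change 1.30, edgeR adjusted p = 0.0294) and in UCPRP (1.62, 0.0147), and had 0.95 in UCS (adjusted p = 0.137, not called). Egr3 was low as well, with a mean under the 5 CPM asked of genes named from the other lists.

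Ier2, a small nuclear early response protein, was at 49.2, 53.6 and 40.4 CPM in UCPRP, 37.6, 40.4 and 38.9 CPM in UCS and 34.7, 35.9 and 35.6 CPM in Vehicle, against 44.5, 81.8 and 31.9 CPM in Control. Both UCPRP and UCS lay above Vehicle without overlap, but none of these differences was called. The log2 fold change of Vehicle against Control was −0.57 (95% interval −1.15 to 0, edgeR adjusted p = 0.175), −0.12 without Control replicate 2 (adjusted p = 0.698) and −0.84 without Control replicate 3 (adjusted p = 0.024). Atf3, a stress-induced bZIP protein that mostly represses and is known in nerve injury, was low, at 9.71, 3.54 and 5.35 CPM in UCPRP, 4.62, 2.41 and 5.21 CPM in UCS and 6.71, 5.57 and 6.94 CPM in Vehicle, against 2.68, 5.87 and 4.92 CPM in Control. Its groups overlapped with Control throughout, and the fold changes against Control were 0.47, −0.13 and 0.51 on the log2 scale (edgeR adjusted p = 0.525, 0.92 and 0.457 in UCPRP, UCS and Vehicle).

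Counted over the list, 2 of 10 members were called in Vehicle against Control (1 higher, 1 lower) where 16.5% of all genes tested were called (9.58% higher and 6.92% lower). In UCS against Control 2 were called, both lower, beside 10.9% of all genes, 4.47% lower and 6.4% higher. In UCPRP against Control 2 were called, both lower, beside 10.4% of all genes, 5.07% lower and 5.3% higher. By the spread alone, 2 members in Vehicle, 4 in UCS and 5 in UCPRP did not overlap with Control, where 30.6%, 28.9% and 28.2% of all genes did not overlap. By direction the shares of all genes without overlap were 14.5% higher and 13.7% lower in UCPRP, 14.9% higher and 14% lower in UCS, and 15.2% higher and 15.4% lower in Vehicle. At an unadjusted p under 0.05 there were 4 members in Vehicle, 3 in UCS and 5 in UCPRP, beside 28.6%, 23.2% and 23.7% of all genes. No member was called higher by edgeR in UCS or UCPRP against Control. DESeq2 called 0 higher in UCS and 2 in UCPRP, and limma-voom 0 in UCS and 1 in UCPRP. The 3 comparisons share the Control libraries.

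**Figure D2:**
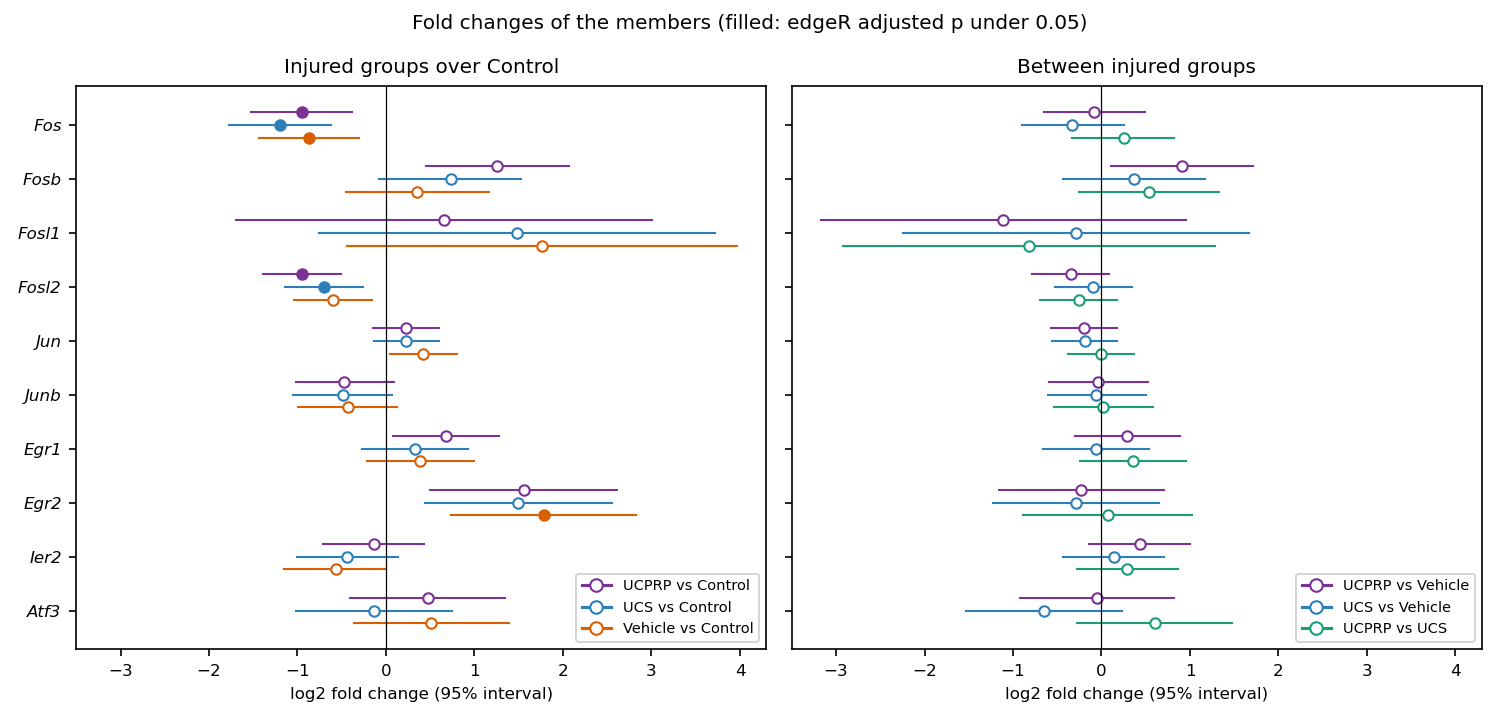
Log2 fold change (x axis) of each gene (y axis) with its 95% interval; left, UCPRP, UCS and Vehicle over Control, right, the comparisons between injured groups; filled points passed an edgeR adjusted p of 0.05. Filled points are Fos in all 3 injured groups, Fosl2 in UCPRP and UCS, and Egr2 in Vehicle, and the right panel has none.

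Whether the biologics changed these genes in injured corneas was asked by setting UCPRP and UCS against Vehicle and against each other. No member was called by edgeR, DESeq2 or limma-voom in any of the 3 comparisons, and edgeR called 0% of all genes in each with all 12 libraries. Without Vehicle replicate 3 edgeR called 19 genes higher and 176 lower in UCPRP against Vehicle and 2 higher and 35 lower in UCS against Vehicle, and 0 members in either. Over all genes DESeq2 called 6 higher and 139 lower in UCPRP against Vehicle, 3 and 11 in UCS against Vehicle, and 0 in UCPRP against UCS, and limma-voom called 0 in each. At an unadjusted p under 0.05 there were 0 members in UCS against Vehicle, 1 in UCPRP against Vehicle and 0 in UCPRP against UCS, beside 4.85%, 9.75% and 2.44% of all genes. That member was Fosb, with means of 15.7 ± 3.61 CPM in UCPRP and 8.37 ± 4.38 CPM in Vehicle (SD, n = 3 each). The difference was 0.91 on the log2 scale (SE 0.36, 95% interval 0.11 to 1.71, edgeR adjusted p = 0.471). Its value was 0.59 without Vehicle replicate 2, 1.38 without Vehicle replicate 3 and 0.64 with Dbp as a covariate.

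The intervals show what could have been missed. For UCPRP against Vehicle they were −0.65 to 0.49 for Fos, −0.79 to 0.09 for Fosl2, −0.57 to 0.18 for Jun and −0.30 to 0.89 for Egr1 on the log2 scale. For UCS against Vehicle they were −0.90 to 0.25 for Fos, −0.53 to 0.34 for Fosl2, −0.56 to 0.18 for Jun and −0.66 to 0.54 for Egr1. Fosl1 had the widest, from −3.17 to 0.96 in UCPRP and −2.24 to 1.67 in UCS. Replicates did not overlap for 1 member in UCPRP against Vehicle (Ier2, higher), beside 13.8% of all genes (6.68% higher, 7.13% lower). They did not overlap for 2 members in UCS against Vehicle (Ier2, higher, and Atf3, lower), beside 9.46% of all genes (5.02% higher, 4.43% lower). For Ier2 the log2 fold changes over Vehicle were 0.43 and 0.14, and for Atf3 in UCS −0.65 (95% interval −1.53 to 0.23). Between UCPRP and UCS 0 members were free of overlap, beside 10.6% of all genes (4.92% higher, 5.73% lower), and the largest log2 fold changes in size were −0.82 for Fosl1, 0.60 for Atf3 and 0.54 for Fosb.

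Ratios of a pair of members within a library do not depend on how libraries are scaled. The 3 computed were chosen after the values above had been seen, so they are descriptions. Each set a gene with lower means in the injured groups (Fos, Fosl2) against one with higher means (Egr1, Jun, Fosb). Separation from Control was thus largely fixed by that choice, and the share of other gene pairs without overlap was not computed. Egr1 counts over Fos counts were 2.23, 2.2 and 2.45 in UCPRP, 1.71, 2.42 and 2.25 in UCS and 1.77, 1.92 and 1.57 in Vehicle, against 0.788, 0.686 and 0.797 in Control. The groups did not overlap with Control. The spread within Control was small (0.757 ± 0.0617, SD, n = 3) although Fos and Egr1 each varied between Control libraries. Fosl2 counts over Jun counts were 1.44, 1.36 and 1.43 in UCPRP, 1.69, 1.61 and 1.73 in UCS and 1.83, 1.29 and 1.6 in Vehicle, against 3.57, 3.37 and 2.69 in Control. The groups again did not overlap with Control. UCPRP lay below UCS without overlap, but the Vehicle libraries spanned the values of both. Fosb counts over Fos counts were 1.22, 0.63 and 0.758 in UCPRP and 0.623, 0.843 and 0.613 in UCS, above the Control values of 0.129, 0.176 and 0.275. In Vehicle they were 0.317, 0.214 and 0.918, and the highest was the high-Dbp library.

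**Figure D3:**
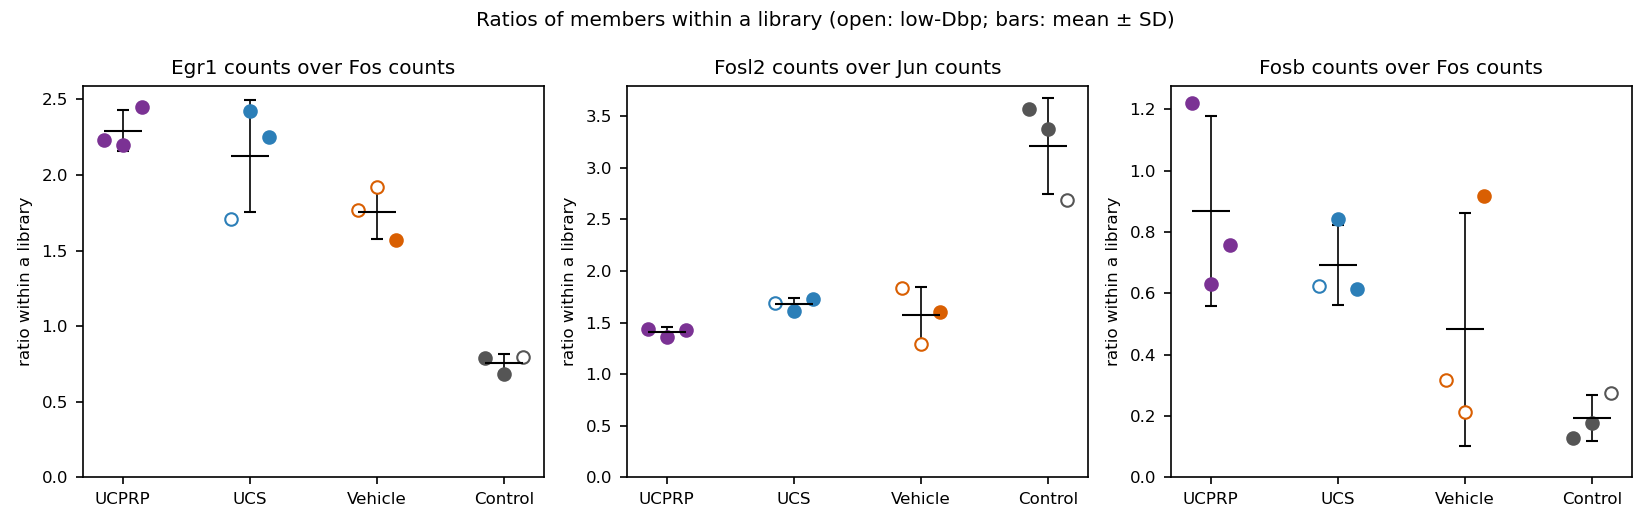
Ratio of estimated counts of 2 genes within a library (y axis) for Egr1 over Fos, Fosl2 over Jun and Fosb over Fos in UCPRP, UCS, Vehicle and Control (x axis); points are libraries, open where Dbp was low, and bars are mean ± SD, n = 3. Injured libraries lie between 1.57 and 2.45 for Egr1 over Fos and Control between 0.686 and 0.797, and for Fosb over Fos Vehicle spreads from 0.214 to 0.918.

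Levels per kilobase of exon allow only a rough comparison between genes. The length used joins all exons annotated for a gene, whether or not they are transcribed here. For Junb and Egr1 it exceeded the RefSeq span of the gene, and the ranks, shares and family sums below depend on it. On this scale Junb was highest in each group, at 74.2 ± 12.6 in UCPRP, 73.2 ± 5.54 in UCS, 76.1 ± 11.5 in Vehicle and 103 ± 42.7 CPM per kilobase in Control (SD, n = 3 each). Jun, Ier2 and Fosl2 followed in changing order, with 24.2 to 34.6 CPM per kilobase in Control and overlapping spreads. Fos averaged 7.89 in UCPRP, 6.66 in UCS, 8.35 in Vehicle and 15.3 CPM per kilobase in Control. Egr2 and Fosl1 were the lowest pair in each group, under 0.5 CPM per kilobase. Within the FOS family Fosl2 held 55.2% ± 3.58 of the summed level per kilobase in UCPRP, 64% ± 2.22 in UCS, 62% ± 1.88 in Vehicle and 61.6% ± 5.38 in Control. The share of Fosb was 10.5% ± 1.73 in UCPRP, 7.15% ± 1.62 in UCS, 5.4% ± 3.9 in Vehicle and 2.5% ± 0.64 in Control. The summed FOS family over the sum of Jun and Junb was 0.235 ± 0.0376 in UCPRP, 0.241 ± 0.0208 in UCS and 0.247 ± 0.0275 in Vehicle, against 0.338 ± 0.0315 in Control.

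Some members varied together between libraries of a group. Deviations of log2 CPM from the group mean correlated across the 12 libraries with r = 0.92 for Junb and Ier2, 0.90 for Fos and Egr1, 0.85 for Fos and Junb, and 0.77 for Fosl2 and Jun, as a description of libraries that share scaling and handling. Over all 45 pairs the median was 0.30 and the lowest −0.61, for Egr2 and Ier2. Control replicate 2 stood above its group mean for 9 members of 10 (all but Egr2), by 0.59 for Fos, 0.62 for Junb and 0.74 for Ier2 on the log2 scale, and Control replicate 3 stood below it by 0.57, 0.59 and 0.61 for the same genes. The TMM factor of Control replicate 2, 0.825, raises all its CPM values. Without TMM its Jun was 72.7 CPM beside a Control mean of 73.1 CPM. Fos (42.4 beside 33.3), Junb (282 beside 218.4) and Ier2 (67.5 beside 48.5) stayed above the mean. In Vehicle, replicate 3 was the lowest library for Fos, Fosl1, Fosl2, Jun, Junb, Egr1 and Egr2 and the highest for Fosb and Atf3. The deviations of Dbp correlated at −0.61 with those of Jun, −0.50 with Egr2, −0.48 with Fosl1, 0.57 with Ier2 and 0.41 with Fosb. The within-group SD of log2 CPM was 0.23 for Jun and 0.26 for Fosl2, near the median of 0.21 over all tested genes, and 0.35 to 0.55 for Fos, Fosb, Junb, Egr1, Egr2, Ier2 and Atf3. It was 1.18 for Fosl1.

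**Figure D4:**
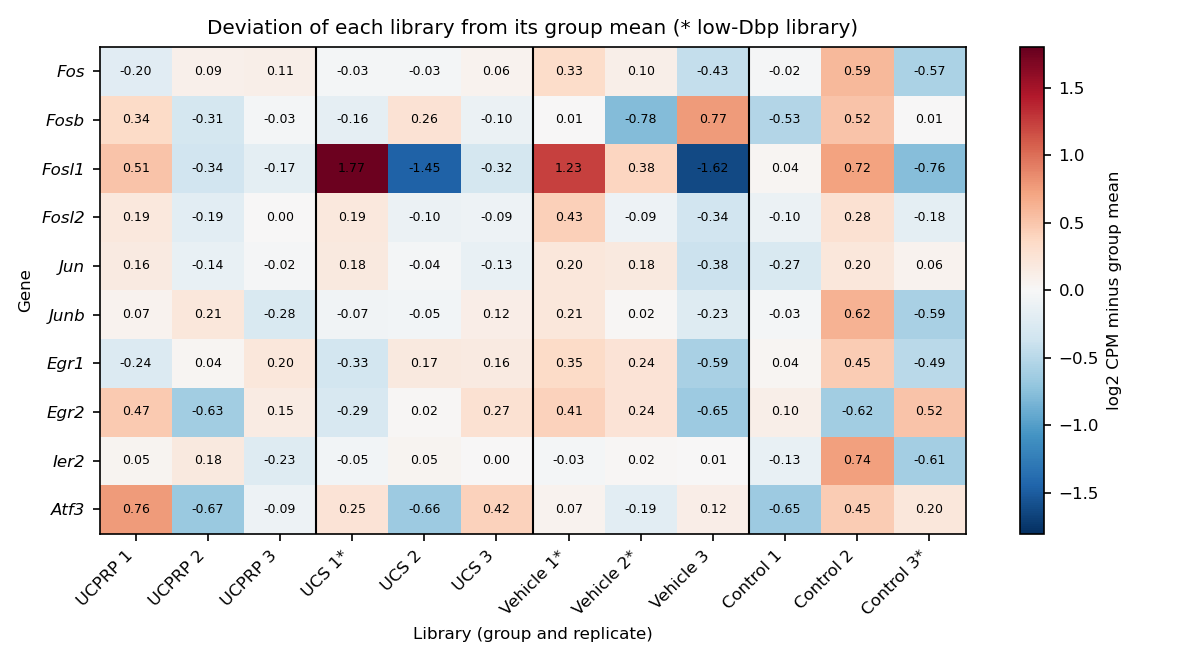
Deviation of each library (x axis, by group and replicate, asterisk for low Dbp) from its group mean in log2 CPM (colour and printed value) for the 10 genes (y axis). Control replicate 2 is above the mean for each gene but Egr2 (−0.62), and Vehicle replicate 3 is low for Fos (−0.43) and high for Fosb (0.77).

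Over all 45 pairs of members the median correlation of levels was 0.18, with a range of −0.71 (Fos and Egr2) to 0.83 (Fos and Junb). The mean of their standardized levels was most like Clns1a (r = 0.92), Nol12 and Rfc2 (0.90 each) over the 12 libraries. By deviations from group means the closest genes were Psmc1 and Hspa9 (0.97 each). With Spearman's correlation 1 of the first 8 genes and 0 of the second 8 were again among the closest 8.

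Other early response genes also moved both ways. In Vehicle against Control 7 of 30 were higher and 3 lower (median log2 fold change −0.05, against 0 for all genes), beside 9.58% of all genes higher and 6.92% lower. Socs3, the feedback inhibitor of cytokine receptors, was at 69.7 ± 41.6 CPM in Vehicle and 8.96 ± 1.49 CPM in Control (log2 fold change 2.96, edgeR adjusted p = 0.00139), and Myc, a growth regulator, at 31.8 ± 3.91 CPM in Vehicle and 14.3 ± 3.12 CPM in Control (1.15, 0.000476). Klf10 (1.05), Gadd45g (1.03) and Plk3 (0.94) were higher as well. Klf4, an epithelial differentiation factor (−1.03), Trib1 (−0.76) and Nr4a2 (−0.57) were the 3 called lower. In UCPRP against Control 3 were higher and 3 lower, beside 5.3% of all genes higher and 5.07% lower. Among them were Myc (log2 fold change 1.43, edgeR adjusted p = 0.000282), Nr4a1, an orphan nuclear receptor (0.95), Klf4 (−1.07) and Nr4a2 (−0.70). In UCS against Control 2 were higher, Plk3 (0.87) and Myc (0.74), and 4 lower, with Klf4 at −0.79 and Trib1 at −0.71. Of all genes 6.4% were higher there and 4.47% lower. None of the 30 was called between injured groups by edgeR with all 12 libraries.

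Among 18 other AP-1 and bZIP genes 3 were higher in Vehicle than in Control (median log2 fold change 0.15), among them the acute-phase factors Cebpd (1.22, edgeR adjusted p = 0.016) and Cebpb (1.01), and 1 was lower, the small MAF Mafk (−0.68). Those 4 of 18 stand beside 16.5% of all genes called, a like share. In UCS 1 was called against Control, Mafk (−0.67), beside 10.9% of all genes, and in UCPRP none, beside 10.4%. The most abundant of them, Jund, a JUN gene with steady expression in many tissues, stood at 225.5 ± 38.6 CPM in UCPRP and 223.5 ± 65.2 CPM in Control. Of 28 genes of upstream kinases and their feedback 2 were higher and 3 lower in Vehicle (median −0.07), beside 16.5% of all genes called, a like share. Dusp14, a phosphatase of MAP kinases, was higher (0.77, edgeR adjusted p = 0.00634), as was Elk3 (0.46), while Spry1 (−0.68) and Dusp6 (−0.36), feedback inhibitors of receptor tyrosine kinase signalling, were lower. In UCPRP 1 was higher, Dusp10 (0.64), and 1 lower, Spred1 (−0.26), which was called lower in Vehicle as well (−0.24). In UCS Dusp14 alone was called (0.62). Of all genes 10.4% were called in UCPRP and 10.9% in UCS.

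Of 21 genes often listed as AP-1 targets 11 were higher and 2 lower in Vehicle against Control, beside 9.58% of all genes higher and 6.92% lower. Their median log2 fold change was 1.59, beside 0.37 for the members and 0 for all genes. The collagenase Mmp13 averaged 45.4 ± 17.2 CPM in Vehicle and 0.976 ± 0.224 CPM in Control (log2 fold change 5.53, edgeR adjusted p = 0.000244), and Mmp9, Timp1 and the cytokine Il1b had 4.83, 3.74 and 5.76. Mmp9 and Il1b are also in the neutrophil marker list, whose sum moved in the same libraries, and the part of these cells was not tested. In UCPRP against Control 7 were higher and 2 lower (median 0.60), beside 5.3% of all genes higher and 5.07% lower. Mmp13 had 3.22 there and the urokinase receptor Plaur 2.42. In UCS 7 were higher and 3 lower (median 0.51), beside 6.4% of all genes higher and 4.47% lower, with Mmp13 at 3.82 and Plaur at 2.05. Plaur was called higher in Vehicle as well (3.39). Against Vehicle the targets had medians of −0.78 in UCPRP and −0.62 in UCS. With all 12 libraries edgeR called 0 of them in each, and 0% of all genes. Cd44, a matrix receptor named as the most abundant of them, had −0.63 and −0.43. It was not raised by injury: against Control it had −0.78 in Vehicle (not called). In UCPRP it had −1.41 (edgeR adjusted p = 0.0186) and in UCS −1.21 (0.0346), both called lower than Control.

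Of 14 genes of the integrated stress response, the program around ATF4 to which Atf3 belongs, 2 were higher and 1 lower in Vehicle against Control (median −0.04), within 1 gene of the 16.5% called over all genes. Ppp1r15a, the phosphatase subunit that ends this response, was at 40.7 ± 7.01 CPM in Vehicle and 82.6 ± 19.7 CPM in Control (log2 fold change −1.02, edgeR adjusted p = 0.00303), and was lower also in UCPRP (−0.88) and UCS (−0.93). Shmt2, a mitochondrial serine enzyme, was higher in Vehicle (0.68) and UCPRP (0.52), and Ddit4 in Vehicle (0.61). Atf4 itself stood at 192.4 ± 10.5 CPM in UCPRP, 175.5 ± 10.2 CPM in UCS and 184.1 ± 3.63 CPM in Vehicle, and it was not called between them.

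**Figure D5:**
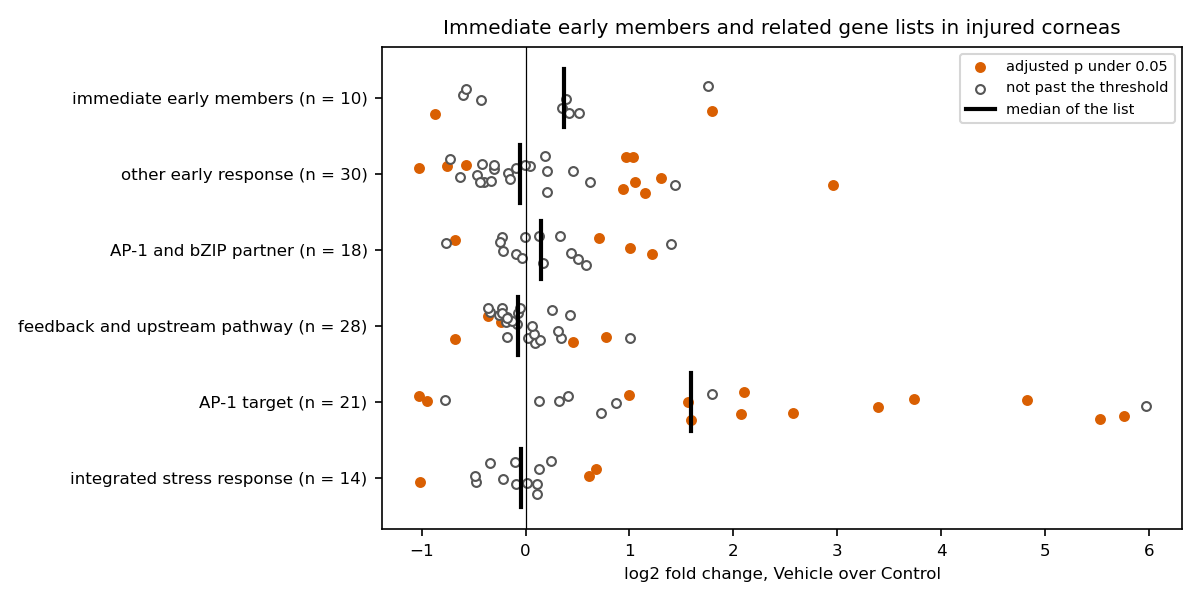
Log2 fold change of Vehicle over Control (x axis) for the members and the genes of 5 related lists (y axis); each point is a gene, filled orange at an edgeR adjusted p under 0.05, and the black bar is the list's median. Medians lie between −0.07 and 0.37 except for the AP-1 targets at 1.59.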

How the data were processed

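Cornea RNA (Qiagen RNeasy) was made into TruSeq Stranded Total RNA libraries, per the labels' protocols. HISAT and GRCm38 are named, without version or role, in the submitters' processing notes, and no counting tool, annotation or use of strand is stated, so reads of overlapping antisense genes cannot be set apart. Estimated counts for each gene were deposited, headed as read counts per the file headers, and 64.9% of them were whole. They were rounded, filtered with filterByExpr (minimum count 10), scaled with TMM and fitted in edgeR 4.0.16 (R 4.3.3, glmQLFit and glmQLFTest), with 1 term per group over 12 libraries, Benjamini-Hochberg adjustment over 16124 genes and a call at an adjusted p under 0.05. SE is the absolute log2 fold change over the square root of F. The 19 alternatives were RLE scaling, no filter, DESeq2 1.42.0, limma-voom 3.58.1, only the compared groups, a replicate block, Dbp as a covariate, and each of 12 libraries left out; high-Dbp and low-Dbp libraries alone were added after seeing the data. Log2 CPM used a prior count of 2. The fits were tested on simulated data. Gene positions and promoters are from RefSeq (GRCm38.p6) and exon lengths from GENCODE annotation; 10 members matched and 7 had a promoter used here. The floor of 3 counts covers counting error only. All members are named; of each other list, up to 4 called genes with the largest change and a mean of at least 5 CPM, otherwise the most abundant; some genes this rule names are not reported here. Vehicle values of Klf4, Trib1, Nr4a2, Plk3, Spred1 and Plaur were added beyond this rule, because it named these genes in another injured group. Egr3, with a mean under 5 CPM, was added beyond it as well. Members, lists, the Dbp split and ratios were chosen with earlier results of these data known.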

Additional observations from a re-analysis of the deposited data

How the results depend on the processing

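Precision was set by 3 pools a group and by low counts, 3 to 31 for Egr2 and 2.32 to 34.72 for Fosl1, whose log2 fold changes against Control had SEs of 0.48 and up to 1.07. Over the 19 alternatives and all 6 comparisons, member values kept direction and side of the threshold 1033 times, lost a call 45 times, gained one 12 times and changed sign 46 times. No called member changed sign under any setting. With only the compared groups Fosl1 did not pass the filter against Control or between UCPRP and UCS and has no value there. Of 40 group means 39 moved by less than 1 SD without TMM. The cause of the changes below was not tested.

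Calls lower in Vehicle against Control numbered 2 with DESeq2 and 0 with limma-voom, with only the 2 groups and with Dbp as a covariate. Calls higher there numbered 0 with only the 2 groups and with the Dbp covariate. In UCS against Control, calls lower numbered 1 with limma-voom. Counts of calls are not given for high-Dbp or low-Dbp libraries alone, as each fit left a group with 1 library. In UCPRP against Control, calls higher numbered 2 with DESeq2 and 1 with limma-voom, with only the 2 groups and with the Dbp covariate, and calls lower 1 with each of the last 3. Leaving out 1 library gave 0 to 2 calls higher and 0 to 2 lower in Vehicle, 0 higher and 1 to 2 lower in UCS, and 0 to 1 higher and 0 to 2 lower in UCPRP against Control, and 0 in the comparisons between injured groups.

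Replicate numbers were not treated as pairs in the main fit. Of 18 same-number pairs 7 had correlated deviations over 0.1 (r −0.58 to 0.49), which cannot settle whether libraries of the same number shared handling. With the replicate block the calls of Fos were lost in UCPRP against Control (−0.90, edgeR adjusted p = 0.0577) and in Vehicle against Control (−0.84, 0.0517). Fosl2 in Vehicle against Control was called (−0.63, edgeR adjusted p = 0.0461), 1 member was called lower in UCPRP against Control, and Junb in UCPRP against UCS had −0.02.

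Other sign changes were in values that were not called. With limma-voom Egr2 in UCPRP against UCS was 0, and with only the 2 groups Junb there was 0. With the Dbp covariate UCPRP against UCS had 0.22 for Fosl1, 0.1 for Jun and −0.08 for Junb. UCPRP against Vehicle then had 0.43 for Fosl1, 0.01 for Jun, 0.21 for Egr2 and 0 for Atf3, and UCS against Vehicle 0.21 for Fosl1 and −0.01 for Ier2. In high-Dbp libraries Vehicle against Control had −1.21 for Fosl1 and −0.47 for Egr1, and UCS against Control −0.63 for Fosl1. In low-Dbp libraries Vehicle against Control had −0.08 for Fosb, 0.34 for Junb and 0.14 for Ier2, and UCS against Control 0.11 for Junb and 0.23 for Ier2. Leaving out 1 library also changed signs. In UCPRP against Control the range was −0.01 to 0.75 for Atf3 and −0.40 to 0.28 for Ier2. In UCPRP against UCS the range was −0.21 to 0.34 for Egr2, −1.34 to 0.88 for Fosl1, −0.09 to 0.09 for Jun and −0.09 to 0.15 for Junb. In UCPRP against Vehicle the range was −0.53 to 0.23 for Atf3, −0.51 to 0.05 for Egr2, −0.26 to 0.10 for Fos and −0.15 to 0.09 for Junb. In UCS against Control the range was −0.40 to 0.14 for Atf3, −0.22 to 2.06 for Fosl1 and −0.70 to 0.03 for Ier2. In UCS against Vehicle the range was −0.30 to 0.11 for Egr1, −1.98 to 0.50 for Fosl1, −0.25 to 0.15 for Fosl2 and −0.16 to 0.06 for Junb. In Vehicle against Control the range was −0.12 to 0.67 for Fosb.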
